A study of Homo sapiens with 4 samples.

Results

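NEAT1, MALAT1, NORAD, TUG1, PVT1, H19, HOTAIR and MEG3 are 8 long noncoding RNAs (lncRNAs). They were picked by gene symbol from the 35993 genes of the table that covers all libraries. The choice was made with earlier results of these data known. The table holds 5120 lncRNA genes. Of the 8, 6 averaged 10 counts or more per library, as did 1234 of all lncRNA genes, and HOTAIR and MEG3 did not. The RNA-Seq was done in MDA-MB 231 cells, an established human triple-negative breast cancer line, to compare CTGF knockdown and kahweol, a diterpene of coffee. Cells were transfected with CTGF siRNA and treated with kahweol, transfected with CTGF siRNA only, transfected with control siRNA (siControl) and treated with kahweol, or transfected with control siRNA only. All cells were therefore transfected, and kahweol was given, by the sample labels, at 50 µM for 48 h in medium without serum. Each condition was 1 library, so no difference between 2 libraries has a replicate check. The comparison rests on 1 line, each siRNA arm on 1 siRNA reagent, and no vehicle is given in the labels for cells without kahweol.

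An lncRNA is transcribed and often spliced like an mRNA but is not known to be translated into a protein, and its work is done by the RNA. NEAT1 and MALAT1 are made from neighbouring genes and stay in the nucleus, where the long NEAT1 transcript builds paraspeckles and MALAT1 collects in nuclear speckles. NORAD is mostly cytoplasmic and binds Pumilio proteins, which repress mRNAs that carry their motif. TUG1 and HOTAIR have been linked to the Polycomb repressive complex PRC2, H19 and MEG3 are imprinted, and PVT1 lies beside the MYC oncogene.

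The sequences below are from the most variable pair, NEAT1 and MALAT1. They show what sets apart the 3′ ends of the long NEAT1 transcript and of MALAT1. Neither end carries a poly(A) tail added by the usual machinery: RNase P cuts before a tRNA-like fold, and the new end is protected by a triple helix of 2 U-rich stretches with an A-rich tract. The stretches come from GENCODE 29 transcripts on GRCh38, chromosome 11, plus strand. For NEAT1-202 they span 65445448 to 65445540, which are bases 22651 to 22743 and the end of the transcript. For MALAT1-202 they span 65506026 to 65506116, bases 8265 to 8355 of 8708. Capitals mark, 5′ to 3′, the letters TTTCTTTT, TTTTGCTTTT and AAAGCAAAA, searched on the transcript's own strand.
NEAT1: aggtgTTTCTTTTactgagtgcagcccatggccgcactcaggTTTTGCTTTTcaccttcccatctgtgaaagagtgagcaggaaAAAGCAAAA
MALAT1: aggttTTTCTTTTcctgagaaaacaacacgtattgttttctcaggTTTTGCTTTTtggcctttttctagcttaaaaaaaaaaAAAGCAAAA
Of 29566 lncRNA transcripts searched, 2 (0.00676%) held TTTTGCTTTT followed within 60 bases by AAAGCAAAA, and these were the NEAT1 and MALAT1 transcripts above. The searched letters are those of these 2 ends, so their own match was set in advance. The count shows only how rare the letters are in other transcripts.

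NORAD carries the other sequence feature that this set of lncRNAs is known for. The Pumilio motif was searched as TGTANATA, with N for any base, on the transcript's own strand. NORAD-201 held 15 matches in 5339 bases, or 2.81 per kb, against 0.0882 per kb over all lncRNA transcripts. Of the 8385 transcripts of at least 1000 bases, 16.8% held a match and 4 held 15 or more. The matches were 6 in NEAT1, 3 in HOTAIR, 2 in TUG1 and 1 in MEG3, and 0 in MALAT1, H19 and PVT1. At 3 places in NORAD the motif occurs as a pair whose starts are 9 bases apart. They lie on the minus strand of chromosome 20 of GRCh38, at 36049497 to 36049525, at 36048300 to 36048328 and at 36047664 to 36047692. Capitals mark the motif.
NORAD pair 1: tatctgTGTATATAgTGTACATAaaggac
NORAD pair 2: ctatacTGTATATAtTGTATATAtaacgg
NORAD pair 3: gtgctgTGTATATAgTGTATATAagcgga
A match describes the letters only and was not tested as a binding site.

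Each library held 44781516 to 59129784 estimated read counts. The knockdown was checked on CTGF (symbol CCN2), which was at 31.8 CPM in siCTGF cells against 186 CPM in siControl cells under kahweol, and at 63.6 against 159 CPM without it. CPM are TMM-scaled counts relative to the library total, as defined by edgeR. In the fit over 4 libraries, the siCTGF effect on CCN2 was a log2 fold change of -1.93 (SE 0.25, edgeR quasi-likelihood, Benjamini-Hochberg adjusted p = 0.0553). The mesenchymal marker VIM was at 2082 to 2819 TPM, and the receptors ESR1 and PGR were at most 0.0928 TPM. The HER2 gene ERBB2 was present at 20.1 to 31.5 TPM. Of 10 markers of fibroblasts, leukocytes and endothelial cells, PDGFRB alone was over 1 TPM, and their summed level was 3.15 and 4.77 TPM in kahweol-treated and untreated siCTGF cells and 3.37 and 5.98 TPM in kahweol-treated and untreated siControl cells. Mitochondrial rRNA took 6.01% and 3.11% of counts in kahweol-treated and untreated siCTGF cells, and 4.33% and 3.94% in kahweol-treated and untreated siControl cells. Whether the rRNA depletion was meant to remove mitochondrial rRNA too is not stated in the sources used here.

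The name of abundant lncRNA fits 5 of the 8. On the length-corrected FPKM scale, averaged over the 4 libraries, MALAT1 was at 109 and NORAD at 103, ranks 8 and 9 among the 5120 lncRNA genes. NEAT1 followed at 13.9 FPKM (rank 35), TUG1 at 12.2 (rank 37) and PVT1 at 10.1 (rank 47). H19 was at 0.152 FPKM (rank 1141), HOTAIR at 0.0240 (rank 1878) and MEG3 at 0.00336 (rank 2457). The order of neighbours was not the same in every library. NORAD, at 116, 103, 92.3 and 103 FPKM in siCTGF cells with and without kahweol and siControl cells with and without kahweol, stood above MALAT1 in both untreated libraries and below it in both kahweol libraries. TUG1 stood above NEAT1 in both untreated libraries and below it in both kahweol libraries. PVT1, at 9.50 to 10.7 FPKM, was the lowest of these 3 in kahweol-treated siCTGF and untreated siControl cells and stood between them in the other libraries. Over the 4 libraries the range of MALAT1, 67.5 to 160 FPKM, held that of NORAD, and the ranges of NEAT1 (9.71 to 21.9 FPKM), TUG1 (8.73 to 16.5 FPKM) and PVT1 overlapped, so the order within each of these groups is not settled by 4 libraries.

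Together the 8 lncRNAs took 31.5% of all lncRNA counts in kahweol-treated siCTGF cells against 21.1% in untreated siCTGF cells, and 28.0% in kahweol-treated siControl cells against 23.0% in untreated siControl cells. NEAT1 and MALAT1 alone made 22.8% against 11.4% and 19.7% against 13.6% of lncRNA counts in the same pairs. Their joint level was 2132 against 815 CPM in siCTGF cells and 1502 against 988 CPM in siControl cells. In both pairs the kahweol library was the higher. In bulk RNA, a different number of cells that express a gene and a different amount of RNA per cell cannot be told apart.

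**Figure D1:**
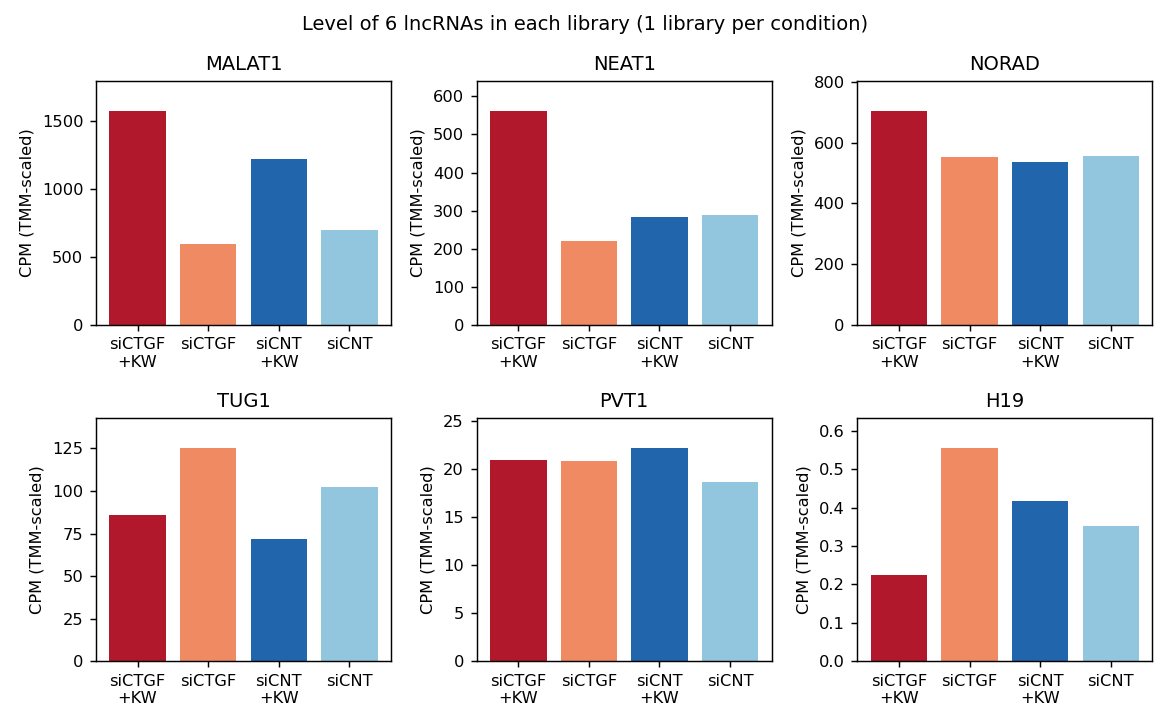
Level of 6 lncRNAs in each of the 4 libraries, in TMM-scaled CPM from 0, with an axis for each gene; KW is kahweol, siCNT is siControl and each bar is 1 library. MALAT1 was higher in both kahweol libraries, at 1571 and 1219 CPM, and NEAT1 stood out in kahweol-treated siCTGF cells, at 560 CPM.

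MALAT1 rose with kahweol. It is a nuclear RNA known for its effect on splicing and gene expression in cancer cells (gene ID 378938, GRCh37 chromosome 11, 65265209 to 65273987, plus strand, 3 transcripts in the files). It was at 1571 CPM in kahweol-treated siCTGF cells against 595 CPM in untreated siCTGF cells, which is 1.40 on the log2 scale (95% counting interval 1.37 to 1.43). In siControl cells it was at 1219 CPM with kahweol against 698 CPM without, or 0.80 on the log2 scale (0.78 to 0.83). Both kahweol libraries lay above both untreated libraries. The fit over 4 libraries, which averages the effect over both siRNAs, gave a log2 fold change of 1.10 (SE 0.12, edgeR quasi-likelihood, adjusted p = 0.000372). The siCTGF effect was not called, at 0.07 (SE 0.12, adjusted p = 0.917). Between siRNAs, MALAT1 differed by 0.37 (0.34 to 0.39) under kahweol and by -0.23 (-0.26 to -0.20) without it, so siCTGF cells were the higher under kahweol and the lower without.

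NEAT1 was high in 1 library. This lncRNA is the scaffold of paraspeckles, nuclear bodies that hold RNA-binding proteins and edited RNAs and that grow under many kinds of stress (gene ID 283131, chromosome 11, 65190269 to 65213011, plus strand, 2 transcripts). It was at 560 CPM in kahweol-treated siCTGF cells against 220 CPM in untreated siCTGF cells, or 1.35 on the log2 scale (1.303 to 1.39). In siControl cells it was at 283 CPM with kahweol against 289 CPM without, or -0.03 on the log2 scale (-0.08 to 0.02), and -0.25 with log2(TPM + 0.1), under which the median over all genes was -0.24. Kahweol-treated siCTGF cells thus stood above the other 3 libraries, which lay between 220 and 289 CPM. Between siRNAs, NEAT1 differed by 0.98 (0.94 to 1.03) under kahweol and by -0.39 (-0.44 to -0.35) without it. The kahweol effect in the fit was 0.66 (SE 0.27, edgeR quasi-likelihood, adjusted p = 0.0772) and did not pass the threshold of 0.05. It passed under 3 of 8 alternatives, with an adjusted p of 0.0323 with DESeq2 size factors, 0.0442 with a mean count of at least 50 and 0.0379 with limma-voom, and DESeq2 gave 0.453. The siCTGF effect was 0.30 (SE 0.26, adjusted p = 0.790). The files count both NEAT1 transcripts as 1 gene, so the short form and the long form that builds paraspeckles were not separated.

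The library with the highest NEAT1 and MALAT1 also had the highest share of mitochondrial rRNA. The mitochondrial large rRNA gene RNR2 differed between siRNAs by 0.55 under kahweol and by -0.37 without it on the log2 scale, the same signs as NEAT1 and MALAT1. RNR2 was higher with kahweol by 1.12 in siCTGF cells and by 0.21 in siControl cells. With scaling to totals that leave out mitochondrial and small RNA, the kahweol effect in the fit was 1.00 for MALAT1 (adjusted p = 0.000132) and 0.56 for NEAT1 (adjusted p = 0.0891). The part of rRNA depletion in these results was not tested.

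NORAD varied little. It is induced by DNA damage and keeps Pumilio proteins away from their mRNA targets (gene ID 647979, chromosome 20, 34633540 to 34638882, minus strand, 1 transcript). It was at 703 CPM in kahweol-treated siCTGF cells against 553 CPM in untreated siCTGF cells, or 0.34 on the log2 scale (0.31 to 0.38). In siControl cells it was at 537 CPM with kahweol against 555 CPM without, or -0.05 on the log2 scale (-0.08 to -0.01). Other scalings gave lower values for kahweol, down to 0.19 in siCTGF cells with total counts and 0.08 with log2(TPM + 1), and down to -0.28 in siControl cells with log2(TPM + 0.1). The median over all genes was -0.15 and -0.18 in siCTGF cells under the first 2 of these and -0.24 in siControl cells under the last. Between siRNAs the difference was 0.39 (0.35 to 0.42) under kahweol and -0.00 (-0.04 to 0.03) without it. The highest level was 1.31 times the lowest, against 2.64 times for MALAT1 and 2.55 times for NEAT1. In the fit neither the kahweol effect of 0.15 (SE 0.09, adjusted p = 0.235) nor the siCTGF effect of 0.19 (SE 0.09, adjusted p = 0.572) was called.

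TUG1 fell with kahweol. Its name comes from taurine up-regulated gene, found in mouse retina (gene ID 55000, chromosome 22, 31365197 to 31375381, plus strand, 8 transcripts). It was at 86.0 CPM in kahweol-treated siCTGF cells against 125 CPM in untreated siCTGF cells, or -0.54 on the log2 scale (-0.62 to -0.46). In siControl cells it was at 71.9 CPM with kahweol against 103 CPM without, or -0.51 on the log2 scale (-0.60 to -0.42). Both kahweol libraries lay below both untreated libraries, and in each pair siCTGF cells were the higher, by 0.26 (0.16 to 0.36) under kahweol and 0.29 (0.22 to 0.36) without it. The fit gave a kahweol effect of -0.53 (SE 0.09, edgeR quasi-likelihood, adjusted p = 0.00214) and a siCTGF effect of 0.27 (SE 0.09, adjusted p = 0.354), which was not called.

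PVT1, a host gene of several microRNAs that is often gained together with MYC in tumours, was nearly level (gene ID 5820, 1 transcript in the files). It was at 21.0 CPM in kahweol-treated siCTGF cells against 20.9 CPM in untreated siCTGF cells, and at 22.2 CPM in kahweol-treated siControl cells against 18.6 CPM in untreated siControl cells. On the log2 scale kahweol made a difference of 0.01 (-0.17 to 0.19) in siCTGF cells and 0.25 (0.07 to 0.43) in siControl cells, and siCTGF one of -0.08 (-0.27 to 0.11) under kahweol and 0.16 (-0.01 to 0.33) without it. In the fit, the kahweol effect of 0.13 (SE 0.11, adjusted p = 0.387) and the siCTGF effect of 0.04 (SE 0.11, adjusted p = 0.950) were not called.

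H19, HOTAIR and MEG3 were at the edge of detection. H19, an imprinted RNA that is abundant in the embryo and hosts a microRNA, had 10 counts in kahweol-treated siCTGF cells against 30 in untreated siCTGF cells, and 18 in kahweol-treated siControl cells against 22 in untreated siControl cells. On the log2 scale it differed with kahweol by -1.17 (-3.11 to 0.23) in siCTGF cells and by 0.22 (-1.21 to 1.65) in siControl cells. With siCTGF it differed by -0.79 (-2.81 to 0.84) under kahweol and by 0.60 (-0.57 to 1.92) without it. All 4 intervals hold 0 when 2 reads are taken as 1 fragment. With each count taken as 1 read, 3 of the 4 still hold 0 and the interval for kahweol in siCTGF cells, -2.50 to -0.23, does not, so whether H19 differed there depends on that rule. HOTAIR, an RNA of the HOXC cluster, had 2 and 0 counts in kahweol-treated and untreated siCTGF cells and 0 and 12 counts in kahweol-treated and untreated siControl cells. MEG3, an imprinted RNA known as a growth suppressor, had 2 counts in untreated siControl cells and 0 in the other 3 libraries. A count of 0 allows up to 3 fragments, or 6 counts, which is 0.111 CPM in untreated siCTGF cells and 0.139 CPM in kahweol-treated siControl cells.

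**Figure D2:**
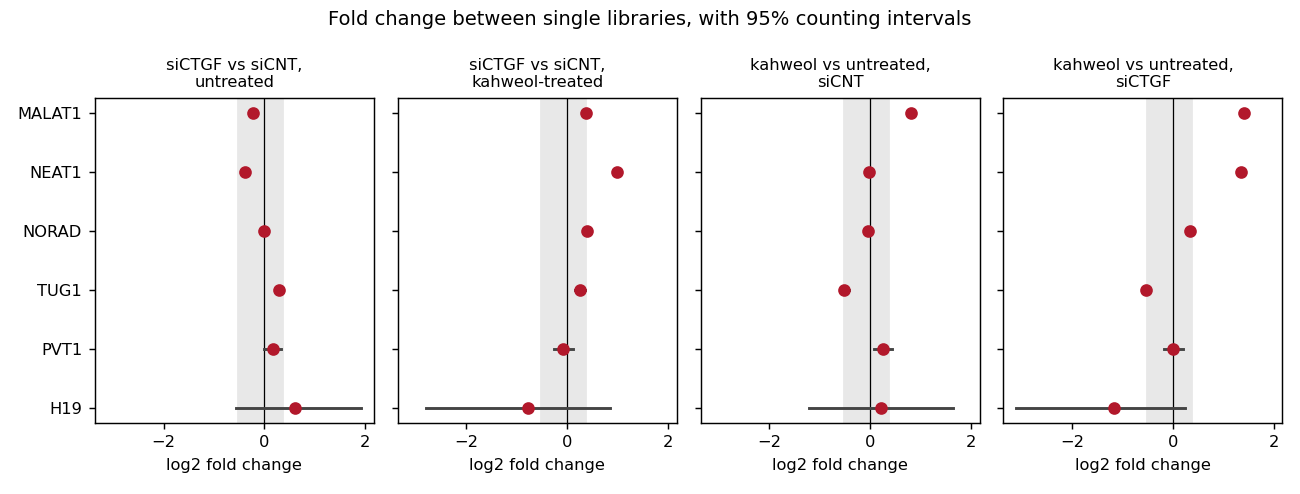
Log2 fold change of 6 lncRNAs between single libraries in the 4 comparisons (points), with 95% counting intervals (lines) and the range between 0.7-fold and 1.3-fold in grey; siCNT is siControl. Intervals of MALAT1, NEAT1 and NORAD are narrower than the points, MALAT1 lies above the grey range in both kahweol comparisons, and the H19 lines cross 0 in all 4.

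Counted at the fold thresholds of the study, over 1.3 and under 0.7, the number of the 6 lncRNAs that passed differed by comparison. For siCTGF against siControl in kahweol-treated cells, NEAT1 and NORAD were over 1.3 (2 of 6, against 14.7% of the 16599 genes kept) and H19 was under 0.7 (1 of 6, against 7.83%). In untreated cells, H19 was over 1.3 (1 of 6, against 9.63%) and 0 of 6 were under 0.7 (against 8.99%). For kahweol against untreated in siCTGF cells, MALAT1 and NEAT1 were over (2 of 6, against 28.4%) and TUG1 and H19 under (2 of 6, against 24.2%). In siControl cells, MALAT1 was over (1 of 6, against 28.1%) and 0 of 6 were under (against 26.3%). Counts of 1 or 2 among 6 genes (16.7% or 33.3%) cannot be told from these background shares. Just inside and just outside the thresholds were NORAD at 1.31 and MALAT1 at 1.29 for siCTGF under kahweol, and TUG1 at 0.688 in siCTGF and 0.702 in siControl cells for kahweol. In the fit over 4 libraries, kahweol called 1 of 6 higher (MALAT1, against 22.9% of all genes) and 1 of 6 lower (TUG1, against 23.6%). The siCTGF effect called 0 of 6 in either direction, against 0.0663% higher and 0.0602% lower of all genes, and of the 6 only TUG1 had an unadjusted p under 0.05 (0.0155). DESeq2 and limma-voom called 0 of the 6 for siCTGF too. The edgeR fit did not call CCN2, the siRNA target, either.

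The 6 lncRNAs kept were set beside all lncRNAs. Their median log2 fold change with kahweol was 0.18 in siCTGF cells and 0.09 in siControl cells, against -0.22 and -0.40 over the 1234 lncRNA genes kept and -0.00 and -0.02 over all genes. In the fit, kahweol called 78 lncRNA genes higher (6.32%, against 22.9% of all genes) and 182 lower (14.7%, against 23.6%). Both shares of calls were below those of all genes. MALAT1 was thus among the 78 and TUG1 among the 182. At the fold thresholds of the study, counted without a test, the share of lncRNA genes lower with kahweol was above that of all genes. It was 39.0% against 24.2% in siCTGF cells and 45.2% against 26.3% in siControl cells. The share higher was 26.2% against 28.4% in siCTGF cells and 21.6% against 28.1% in siControl cells. Why calls and fold shares differ for falls was not tested. With siCTGF, the median over the 6 was 0.31 under kahweol and 0.08 without it, against 0.15 and 0.00 over all lncRNAs.

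The kahweol effect was not equal under the 2 siRNAs for 3 of the 6. The difference of the effects, siCTGF cells minus siControl cells, was 1.38 for NEAT1 (95% counting interval 1.31 to 1.44), 0.60 for MALAT1 (0.56 to 0.64) and 0.39 for NORAD (0.35 to 0.44). For TUG1 it was -0.03 (-0.15 to 0.09), for PVT1 -0.24 (-0.49 to 0.01) and for H19 -1.39 (-3.32 to 0.55). The difference was below that of NEAT1 in 95.9% of the 16599 genes, below that of MALAT1 in 87.7% and below that of NORAD in 81.4%. Over all genes the middle 90% ran from -0.84 to 1.23, and over the 1234 lncRNA genes it ran from -1.81 to 2.58, a range that holds NEAT1. With 1 library in each condition the difference could not be tested, and its interval covers counting error only.

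**Figure D3:**
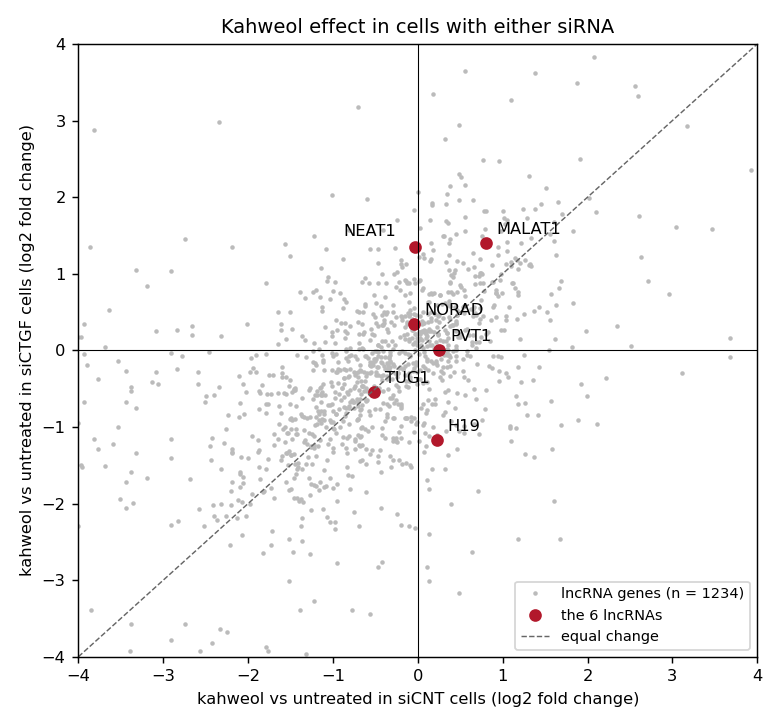
Kahweol effect (log2 fold change, kahweol against untreated) in siCTGF cells (vertical axis) and in siControl cells (siCNT, horizontal axis) for the 1234 lncRNA genes kept (grey) and 6 lncRNAs (red); 36 genes lie outside the axes, and the dashed line marks equal change. TUG1 lies on the line, while NEAT1, MALAT1 and NORAD lie above it by 1.38, 0.60 and 0.39.

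The nearest genes on either side of NEAT1, on the same strand, were lower with kahweol. FRMD8, which lies 9273 bases before NEAT1 on the same strand, was lower with kahweol by 0.23 on the log2 scale in siCTGF cells and by 0.48 in siControl cells, and it fell in the fit (-0.36, SE 0.10, adjusted p = 0.0232). The pseudogene LOC101927789 between NEAT1 and MALAT1 was also lower, by 0.82 and 0.63 in the same pairs, and was not called (adjusted p = 0.0692). TALAM1, the antisense transcript of the MALAT1 locus, had 476 counts in kahweol-treated siCTGF cells against 485 in untreated siCTGF cells, and 1011 in kahweol-treated siControl cells against 359 in untreated siControl cells. It rose with kahweol in the fit (1.15, SE 0.36, adjusted p = 0.0329), and the single pairs gave 0.26 (-0.00 to 0.53) in siCTGF cells and 2.02 (1.78 to 2.28) in siControl cells. TALAM1 made 0.678% of the counts of both strands in kahweol-treated siCTGF cells (Clopper-Pearson 0.594 to 0.769) against 1.48% (1.302 to 1.68) in untreated siCTGF cells, and 1.88% (1.73 to 2.06) in kahweol-treated siControl cells against 0.816% (0.703 to 0.946) in untreated siControl cells. Kahweol-treated siControl cells had the highest TALAM1 and not the highest MALAT1. The library kit keeps strand, but whether the counting used it is not stated in the sources used here, so reads of the 2 strands may not be fully separated. The tRNA-like MASCRNA cut from MALAT1 had 1 count in each library, and MIR612 inside NEAT1 had 2.

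TUG1 and its divergent neighbour MORC2, an ATPase that takes part in gene silencing, went opposite ways. MORC2 begins 437 bases before the TUG1 start in the files and is read from the other strand, away from TUG1. MORC2 was at 42.0 CPM in kahweol-treated siCTGF cells against 25.8 CPM in untreated siCTGF cells, and at 42.9 CPM in kahweol-treated siControl cells against 25.4 CPM in untreated siControl cells. It rose in the fit by 0.73 (SE 0.09, adjusted p = 0.000583), while TUG1 fell. SMTN, the next gene on the other side, was not called (adjusted p = 0.471). The RefSeq promoter of TUG1, 250 bases before to 50 after its start, faces MORC2 and is shown because genes on both of its sides were called. It is on GRCh38.p14, chromosome 22, 30969015 to 30969314, plus strand. Capitals mark CCAAT on either strand (CCAAT or ATTGG) and CACGTG, with no overlap between them.
TUG1 promoter: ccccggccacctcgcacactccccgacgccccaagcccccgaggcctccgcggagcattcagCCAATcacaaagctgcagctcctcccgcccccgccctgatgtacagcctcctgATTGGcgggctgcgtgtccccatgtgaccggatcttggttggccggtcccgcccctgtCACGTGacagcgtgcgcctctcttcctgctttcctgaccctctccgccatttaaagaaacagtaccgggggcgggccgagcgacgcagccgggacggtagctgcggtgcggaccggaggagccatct
Of 35116 RefSeq promoters of this length, 10.6% held at least 2 CCAAT matches, as here, and 7.26% held CACGTG.

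**Figure D4:**
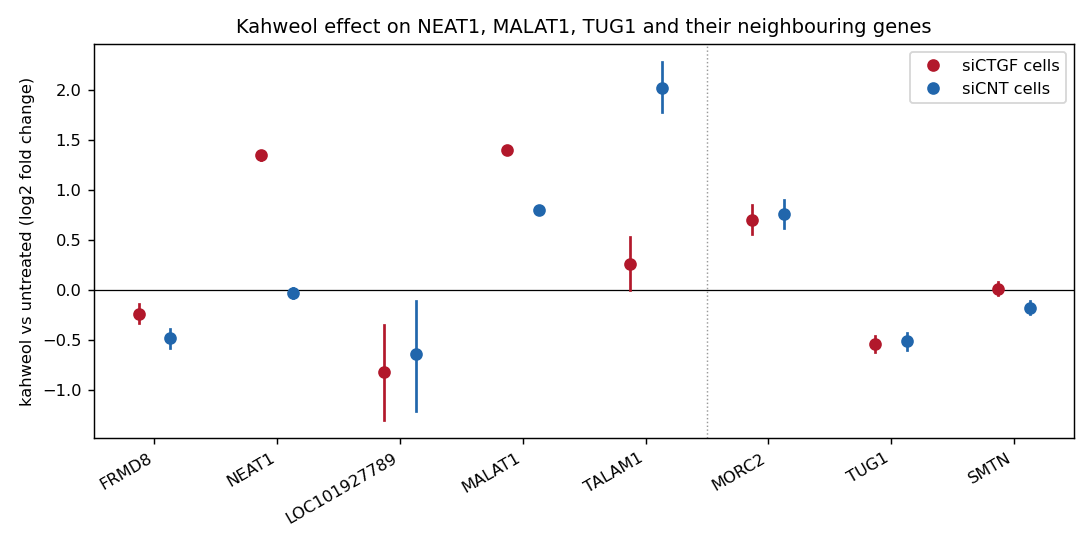
Kahweol effect (log2 fold change, kahweol against untreated, with 95% counting intervals) in siCTGF cells (red) and siControl cells (siCNT, blue) for genes in their order along the chromosome, the NEAT1 and MALAT1 locus left of the dotted line and the TUG1 locus right of it. NEAT1 lies at 1.35 and -0.03, TALAM1 at 0.26 and 2.02, and MORC2 lies above 0 where TUG1 lies below it.

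Of the other neighbours, MYC, which lies before PVT1 on the same strand, rose with kahweol in the fit (0.49, SE 0.07, adjusted p = 0.000965), by 0.53 (0.48 to 0.58) in siCTGF cells and by 0.45 (0.41 to 0.50) in siControl cells. PVT1 itself was not called. IGF2, the growth factor gene next to H19, had 43 counts in kahweol-treated siCTGF cells against 70 in untreated siCTGF cells, and 65 in kahweol-treated siControl cells against 86 in untreated siControl cells, and was not called (adjusted p = 0.814). CNBD2 beside NORAD had 6 to 49 counts and was not called (adjusted p = 0.478). The nearest genes of HOTAIR and MEG3 had 4 counts at most.

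Genes of proteins that work with these RNAs were read from gene lists. All values are RNA levels of these genes, and protein was not measured. Of 22 nuclear speckle proteins and factors of the MALAT1 3′ end, kahweol called 14 higher (63.6%, against 22.9% of all genes) and 2 lower (9.09%, against 23.6%) in the fit. SON, a scaffold of nuclear speckles, rose by 0.83 (adjusted p = 0.000875) and the splicing factor SRSF3 by 0.29 (adjusted p = 0.00778). METTL16, a methyltransferase that binds the MALAT1 triple helix, was at 72.9 CPM in kahweol-treated siCTGF cells against 37.2 CPM in untreated siCTGF cells, and at 70.6 against 36.4 CPM in siControl cells. It rose by 0.96 (adjusted p = 0.000187). Of 10 protein subunits of RNase P, 6 were called higher and 2 lower, with RPP21 higher by 1.10 (adjusted p = 0.00298) and POP5 and POP1 at -1.18 (adjusted p = 0.000297) and -0.71 (adjusted p = 0.00157). RPPH1, the RNA part of RNase P, rose by 0.88 (adjusted p = 0.000579). The list's median log2 fold change in the fit was 0.32, against -0.01 over all genes. At the fold thresholds of the study, 8 of the 22 were over 1.3 with kahweol in siCTGF cells (36.4%, against 28.4%). In siControl cells 10 were over (45.5%, against 28.1%). In each, 2 were under 0.7 (9.09%, against 24.2% and 26.3%).

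Of 46 paraspeckle proteins kept, 13 were called higher (28.3%, against 22.9% of all genes) and 10 lower (21.7%, against 23.6%) with kahweol, and the list's median was 0.06. Both shares were near those of all genes. RBM14, needed for paraspeckles to form, was at 105 CPM with kahweol against 49.1 CPM without in siCTGF cells and at 105 against 49.9 CPM in siControl cells, and rose by 1.08 (adjusted p = 0.000124). AKAP8L rose by 1.26 (adjusted p = 7.74e-05) and HNRNPH3 by 1.10 (adjusted p = 0.00179). Among the 10 lower were NUDT21, a subunit of a 3′ end processing factor that favours the short NEAT1 form, at -0.62 (adjusted p = 0.000806), HNRNPK, which favours the long form, at -0.21 (adjusted p = 0.0274), and TAF15 at -0.50 (adjusted p = 0.0132). The siCTGF effect called 0 genes higher and 0 lower in each of the 8 lists with edgeR, where 0 to 4 genes a list had an unadjusted p under 0.05. DESeq2 called 1 gene higher among NORAD-binding proteins and 1 among other lncRNAs, and limma-voom called 1 among other lncRNAs.

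Of 8 proteins that bind NORAD, 4 were called higher (50.0%, against 22.9% of all genes) and 0 lower (against 23.6%) with kahweol, and the list's median was 0.38. At the fold thresholds of the study, 3 of the 8 were over 1.3 in siCTGF cells (37.5%, against 28.4%). In siControl cells 5 were over (62.5%, against 28.1%), and 0 were under 0.7 in either. With 8 genes these shares rest on few calls. The Pumilio gene PUM2 rose by 0.58 (adjusted p = 0.00608), and topoisomerase TOP1 and the splicing factor CDC5L rose by 0.76 (adjusted p = 0.00105) and 0.69 (adjusted p = 0.000275). Of 14 subunits of PRC2 and of the LSD1-CoREST complex, 6 rose in the fit (42.9%, against 22.9%) and 3 fell (21.4%, against 23.6%). In siCTGF cells 4 of the 14 were over 1.3 with kahweol (28.6%, against 28.4%) and 2 under 0.7 (14.3%, against 24.2%). In siControl cells 5 were over (35.7%, against 28.1%) and 1 under (7.14%, against 26.3%). With 14 genes these shares also rest on few calls. MTF2 rose by 0.77 (adjusted p = 0.000739) and PHF19, another Polycomb-like protein of PRC2, fell by 0.61 on the log2 scale (adjusted p = 0.00119). Of 9 imprinted genes and IGF2 partners kept, 3 rose (33.3%) and 2 fell (22.2%) in the fit, and with 9 genes these shares cannot be told from those of all genes. The cell cycle inhibitor CDKN1C rose by 1.55 (adjusted p = 0.000153) and the imprinted lncRNA KCNQ1OT1 by 1.38 (adjusted p = 0.000343), while the IGF2 mRNA-binding proteins IGF2BP2 and IGF2BP3 were at -0.35 (adjusted p = 0.0139) and -0.31 (adjusted p = 0.0359).

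Of 23 other named regulatory lncRNAs kept, 7 rose (30.4%, against 22.9% of all genes) and 6 fell (26.1%, against 23.6%) with kahweol, which is near the background, and KCNQ1OT1 is counted here too. MIR22HG, the host of a microRNA, was at 184 CPM in kahweol-treated siCTGF cells against 32.6 CPM in untreated siCTGF cells, and at 127 against 34.0 CPM in siControl cells. It rose by 2.20 (adjusted p = 6.34e-05), more than MALAT1. GAS5, a growth-arrest lncRNA that hosts small nucleolar RNAs, rose by 0.89 (adjusted p = 0.00015). UCA1, an lncRNA first found in bladder cancer, was at 40.8 against 115 CPM in siCTGF cells and at 48.9 against 142 CPM in siControl cells, with and without kahweol, and was at -1.51 in the fit (adjusted p = 5.31e-05). OIP5-AS1 was at -1.17 (adjusted p = 0.000102).

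Short structured RNAs rose with kahweol in 9 of 14 cases (64.3%, against 22.9% of all genes) and fell in 0 (against 23.6%), with a list median of 0.74. RN7SK, which holds back transcription elongation, rose by 0.68 (adjusted p = 0.000106), RN7SL1 of the signal recognition particle by 0.74 (adjusted p = 0.000343) and RMRP by 0.61 (adjusted p = 0.000122). DESeq2 called 7 of the 14 higher. These RNAs, like MALAT1, lack a poly(A) tail. Of 15 mitochondrial RNAs, the 2 rRNAs rose (RNR1 by 0.78, adjusted p = 0.000538, and RNR2 by 0.66, adjusted p = 0.0159) and 4 mRNAs fell (13.3% higher and 26.7% lower in all), among them COX1 at -0.54 (adjusted p = 0.0132), while DESeq2 called 1 higher and 0 lower. The yield of short, structured and untailed RNA in each library was not measured apart from these values, and its part in the MALAT1 result was not tested.

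**Figure D5:**
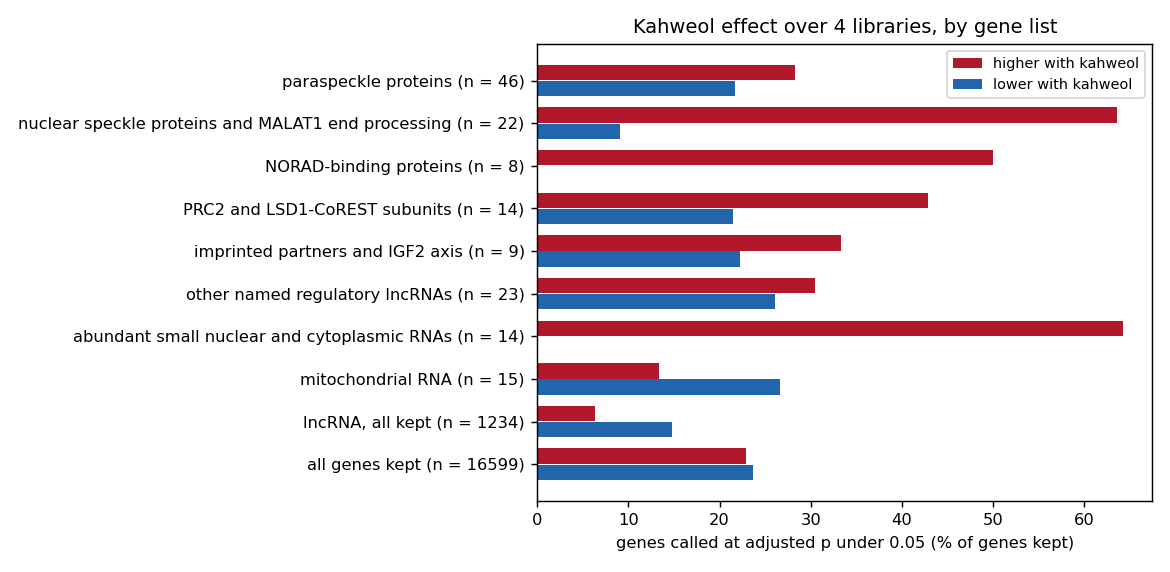
Share of the genes kept in each list, in percent, that the fit over 4 libraries called higher (red) or lower (blue) with kahweol at an adjusted p under 0.05; n is the number of genes kept. The joint list of nuclear speckle proteins and MALAT1 3′ end factors and the list of small RNAs had most calls upward (14 of 22 and 9 of 14). Paraspeckle proteins had 13 and 10 calls of 46, near the shares of all genes, 22.9% and 23.6%.

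The genes whose pattern over the 4 libraries was most like each lncRNA were found by the root mean square difference of mean-centred log2 CPM among the 12595 genes that averaged 100 counts or more. For NEAT1 they were ZNF34 (0.0895), RASL11A (0.0995) and the small RNA SCARNA9 (0.112), and MALAT1 was farther, at 0.317. For MALAT1 they were FBXO32 (0.0280), a ubiquitin ligase subunit of muscle wasting, NATD1 (0.0425) and ADM5 (0.0472). FBXO32 was at 65.3 against 25.8 CPM in siCTGF cells and at 51.5 against 28.8 CPM in siControl cells, with and without kahweol. For NORAD they included ZNF526 (0.0154) and LOC645513 (0.0197). For TUG1 they were PERP (0.0116), LSM7 (0.0227) and PHACTR2 (0.0242), and for PVT1 TMX1 (0.00443), ALG8 (0.00567) and BZW1P2 (0.00710). With 4 libraries and so many genes, close matches are common and describe the pattern only.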

How the data were processed

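RNA-Seq of rRNA-depleted, stranded total RNA was used from 4 libraries. The submitters' processing notes name FastQC 0.11.7, Trimmomatic 0.38, HISAT2 2.1.0, Bowtie2 2.3.4.1, StringTie 2.1.3b and GRCh37.p13. The estimated counts per gene, deposited by the authors, are whole numbers without normalization. The authors computed FPKM and TPM with StringTie. The coverage signal, also deposited by the authors, was used only to find that 1 count of NORAD stands for 101 bases, a single read of a pair. Counting intervals (95%, Clopper-Pearson) therefore took 2 reads as 1 fragment. Reads carry no molecular identifiers, so intervals and floors cover counting error only. The p-values of the fit weigh an effect against what siRNA and kahweol as separate terms leave unexplained in these 4 libraries. That is not a spread between replicates. The edgeR fit also draws the variance of each gene toward that of other genes, so a p-value does not rest on its own gene alone.

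Scaling was by TMM (edgeR 4.0.16 under R 4.3.3). The 16599 genes that averaged 10 counts or more were kept, and a prior count of 2 entered the log2 CPM. The fit over 4 libraries (edgeR quasi-likelihood, siRNA and kahweol as terms, 1 residual degree of freedom, Benjamini-Hochberg over all genes kept) takes the interaction as noise. It was run on simulated data too, but these held no interaction, so that step was not checked. Each SE of the fit was taken as the absolute log2 fold change divided by the square root of its F statistic. Alternatives changed the scaling, filter, prior count, unit, threshold, fragment rule, covariate or test (DESeq2 1.42.0, limma 3.58.1). Sequences came from GENCODE 29 and, for the TUG1 promoter, RefSeq (5 of 8 symbols matched). The lncRNAs and the 8 gene lists were chosen with earlier results of these data known. Named were the 8 lncRNAs, CCN2, their neighbours, the 3 genes most alike, genes called in a list, and for each list and direction at most 2 genes past a threshold in both comparisons of an effect. A few genes that this rule selects were left out of the text.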

Additional observations from a re-analysis of the deposited data

Results flagged for a closer look

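The siCTGF effect on NEAT1 had opposite signs with and without kahweol, 0.98 under kahweol and -0.39 without it, a difference of 1.38 on the log2 scale. The same held for MALAT1, at 0.37 and -0.23, a difference of 0.60. The kahweol effect on NORAD was 0.34 in siCTGF cells and -0.05 in siControl cells, a difference of 0.39. Each was picked out because 2 single-library comparisons went opposite ways, and with 1 library per condition none of the differences was tested.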

How the results depend on the processing

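No paired analysis was possible because each condition has 1 library and the labels give no replicate numbers, and no library could be left out of a comparison for the same reason. Of 24 fold changes of the 6 lncRNAs, 21 kept their sign under all alternatives. The 3 that turned were H19 with kahweol in siControl cells (0.22, lowest -0.02), NORAD with siCTGF in untreated cells (-0.00, highest 0.00) and PVT1 with kahweol in siCTGF cells (0.01, lowest -0.25). In the fit, the calls of MALAT1 (adjusted p 2.14e-05 to 0.0148) and TUG1 (2.32e-05 to 0.0170) with kahweol held under all 8 alternatives. The siCTGF effect on H19 turned to 0.0284 without the covariate and 0.0657 with limma-voom, and the kahweol effect on PVT1 to -0.0124 with total-count scaling. Scaling moved the median over all genes with kahweol to -0.15 in both siRNA arms with total counts, and to -0.24 in siControl and -0.25 in siCTGF cells with log2(TPM + 0.1).

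Counts of the 6 lncRNAs moved as follows. For siCTGF in untreated cells, 0 were over 1.3 with a mean count of 50 or log2(TPM + 1) or log2(FPKM + 1), and 2 of 8 were under 0.7 with no filter. For siCTGF under kahweol, 1 was over with DESeq2 size factors, total counts, any TPM or FPKM scale or a threshold of 1.5, and 0 were under with the stricter filter or a pseudocount of 1. For kahweol in siControl cells, 1 was under with either total-count scaling or any TPM or FPKM scale, and 3 with no filter. In siCTGF cells, 1 was under with the stricter filter, a pseudocount of 1 or a threshold of 1.5.

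Over all genes, no filter gave 3740 over and 3871 under for siCTGF in untreated cells, 5323 and 3083 under kahweol, 7046 under for kahweol in siControl cells, and 7563 over and 6154 under in siCTGF cells. A mean count of 50 gave 822 and 635 for siCTGF in untreated cells and 1329 and 596 under kahweol. For the same pair, log2(TPM + 1) gave 571 and 597, then 869 and 489, and log2(FPKM + 1) gave 519 and 243, then 620 and 216. A threshold of 1.5 gave 844 and 1461 over. For kahweol, genes over were 2319, 2975 and 2556 in siControl cells and 2263, 2966 and 2240 in siCTGF cells with log2(TPM + 1), log2(TPM + 0.1) and log2(FPKM + 1). The share of calls upward with kahweol was 51.7% in siControl and 54.0% in siCTGF cells, but 41.0% and 41.9% with total counts, 33.8% and 34.0% with log2(TPM + 0.1), 33.9% and 33.8% with log2(TPM + 1) and, in siCTGF cells, 41.3% with log2(FPKM + 1). With siCTGF it was 65.3% under kahweol (55.1% with log2(TPM + 0.1)) and 51.7% in untreated cells (68.1% with log2(FPKM + 1)). In the fit it was 49.2% for kahweol and 52.4% for siCTGF, and 35.8% and 42.0% with total counts. The siCTGF effect in the fit called 11 higher and 10 lower, against 35 and 40 with DESeq2 size factors, 34 and 47 with total counts, 22 and 27 without mitochondrial and small RNA, 23 and 27 with a mean count of 50, 68 and 60 with DESeq2, 32 and 28 with limma-voom, and 0 and 0 without the covariate. The cause of these moves was not tested, except that a looser or stricter filter changes how many genes enter and a pseudocount of 1 shrinks low genes. Depth limits H19, HOTAIR and MEG3, whose counts were 30 or less.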
